A study of Rattus norvegicus with 8 samples.

Results

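The genes described here are 44 members of the machinery that copies DNA and supplies its building blocks. They were taken by name, as probes whose gene name in the array files is that of a member, and all 44 were found among the 26183 gene names on the array. They were read by 52 probes, and all 44 were among the 16908 genes tested, which had a probe well above background on each of the 2 arrays in some group. Genes were not chosen by how they changed, although the set was proposed with earlier results of these data known. By role, 5 members act in origin recognition and licensing, 6 form the MCM2-7 helicase, 6 activate it, 9 belong to the polymerases and the primase, 6 to the sliding clamp and its loader, 4 to single-strand binding and Okazaki fragment maturation, 5 to nucleotide synthesis and 3 to the G1/S switch.

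RNA came from N27 cells, an immortalised line from the mesencephalon of rat embryos that the labels describe as dopamine producing. The 4 groups were untreated control, Mn (manganese, 150 µM for 48 h), MPP+ (250 µM for 48 h; it blocks respiratory complex I) and 3-NPA, for which the labels give neither dose nor time and which is read here as the succinate dehydrogenase poison 3-nitropropionic acid. Each group had 2 single-colour arrays, and nothing in the labels says that the 2 came from separate cultures, so the p-values reflect array-to-array spread, which may be technical. N27 is a single transformed line, which limits it as a model of neurons in tissue. The vehicle and the time in culture of the control cells are not in the labels.

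Cells licence an origin of replication by loading the MCM helicase onto it with the origin recognition complex, Cdc6 and Cdt1, and fire it once Cdc45 and the GINS complex have joined the helicase. Primase and the replicative polymerases then copy both strands, with the clamp Pcna, which the RFC complex loads, holding polymerases on the DNA. Ribonucleotide reductase, thymidylate synthase, thymidine kinase and dUTPase supply and police the deoxynucleotides. Many of these genes are known targets of E2F transcription factors and are transcribed mainly as cells enter S phase, so that their RNA is used as a mark of proliferation.

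Promoter sequences are shown first because the data hold members with E2F words of the same kind that were called in opposite directions after 3-NPA. In RefSeq's promoter table for the GRCr8 assembly, 37 of 44 members had an entry, which spans 250 bases before the gene's start and 50 after it. Those without one are Orc1, Cdc6, Mcm4, Gins4, Rrm2, E2f1 and Ccne2. The words TTTCCCGC, TTTCGCGC, TTTGCCGC and TTTGGCGC, which E2F proteins are known to bind, were searched on both strands. At least 1 of them was present in 17 of 37 members (45.9%), against 716 of the 33469 promoters in the table (2.14%). The 17 promoters held 26 words, of which 11 began within the 100 bases before the start, and words on opposite strands can overlap. All 5 MCM2-7 genes with an entry held a word, as against 1 of 4 nucleotide synthesis genes and 1 of 6 clamp and loader genes. CCAAT, a word of many proliferation promoters, was present on either strand in 22 of 37 members (59.5%) and in 37.5% of all promoters. The 5 members called with 3-NPA that have a word wholly before the start follow, with their 250 bases before it, 5′ to 3′ in the direction of the gene, with the E2F words in capitals. Tyms, Mcm5 and Gins1 were called lower with 3-NPA, and Mcm2 and Gins3 higher. Gins3 was not well above background on either control array, and its call was lost with another background correction and without 3-NPA replicate 1. The Mcm2 call was lost with scaling by the array median, on the mean of both probes and without either 3-NPA array. Leaving out some single arrays also ended the calls of Mcm5 and Gins1, and that of Tyms held.
Gins1, lower with 3-NPA, chr3:160184670-160184919, plus strand: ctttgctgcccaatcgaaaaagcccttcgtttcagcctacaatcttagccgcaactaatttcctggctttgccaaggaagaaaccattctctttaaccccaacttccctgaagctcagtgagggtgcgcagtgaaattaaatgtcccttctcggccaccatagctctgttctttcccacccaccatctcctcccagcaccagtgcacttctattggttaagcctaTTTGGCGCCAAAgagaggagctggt
Gins3, higher with 3-NPA, chr19:9434680-9434929, minus strand: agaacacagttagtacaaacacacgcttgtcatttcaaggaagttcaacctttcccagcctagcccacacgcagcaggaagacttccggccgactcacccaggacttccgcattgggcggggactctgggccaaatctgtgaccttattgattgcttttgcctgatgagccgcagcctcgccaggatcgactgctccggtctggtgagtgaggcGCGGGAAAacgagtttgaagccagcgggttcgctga
Mcm2, higher with 3-NPA, chr4:122918095-122918344, minus strand: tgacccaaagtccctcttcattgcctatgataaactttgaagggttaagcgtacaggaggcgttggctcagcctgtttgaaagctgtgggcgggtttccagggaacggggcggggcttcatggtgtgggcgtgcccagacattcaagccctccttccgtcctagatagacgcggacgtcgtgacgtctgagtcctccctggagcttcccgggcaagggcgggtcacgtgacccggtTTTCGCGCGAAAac
Mcm5, lower with 3-NPA, chr19:13488563-13488812, plus strand: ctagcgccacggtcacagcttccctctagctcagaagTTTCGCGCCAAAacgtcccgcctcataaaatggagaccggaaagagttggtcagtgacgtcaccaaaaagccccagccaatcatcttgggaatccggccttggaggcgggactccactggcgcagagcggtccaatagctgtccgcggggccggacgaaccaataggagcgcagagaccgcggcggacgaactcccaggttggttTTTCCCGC
Tyms, lower with 3-NPA, chr9:120776084-120776333, minus strand: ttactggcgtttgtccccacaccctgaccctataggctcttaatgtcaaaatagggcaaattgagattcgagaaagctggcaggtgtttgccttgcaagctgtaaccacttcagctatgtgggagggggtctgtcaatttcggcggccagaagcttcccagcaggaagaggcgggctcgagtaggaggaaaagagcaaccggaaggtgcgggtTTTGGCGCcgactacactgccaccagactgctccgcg

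Members with and without a word were called in both directions with 3-NPA. Of the 17 members with an E2F word, 2 were called higher and 4 lower with 3-NPA, with a median log2 difference of -0.28, and of the 20 members without one, 1 was higher and 6 lower, with a median of -0.24. Over all genes tested, 22.3% were called higher and 16% lower with 3-NPA, and the counts were not tested against those shares. With MPP+ the medians were -0.22 with a word and -0.12 without. These are descriptions of letters in a window and say nothing of which proteins bound there. The plot of word positions places the words by their distance from the start.

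**Figure D1:**
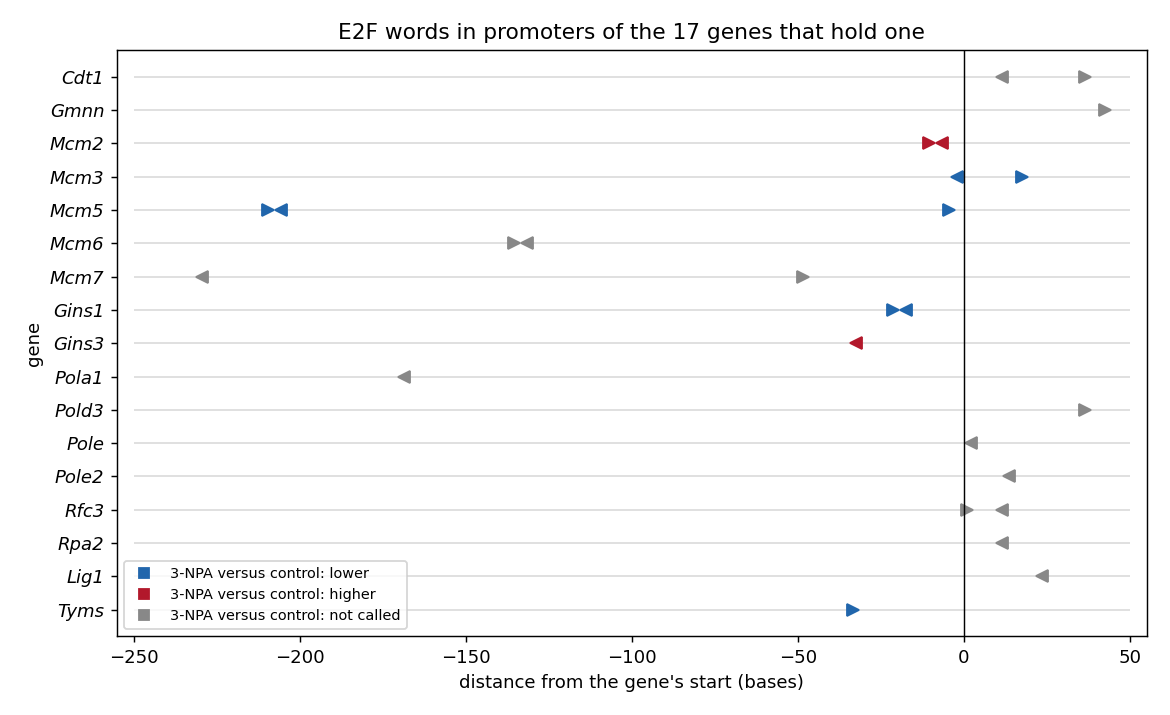
E2F words in the promoters of the 17 members that hold one. The horizontal axis is the distance from the gene's start in bases, each row is a gene, triangles pointing right are words on the gene's strand and triangles pointing left words on the other strand, and colour gives the 3-NPA call (red higher, blue lower, grey not called). Of the 26 words, 11 begin within the 100 bases before the start.

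All values below are log2 processed signals relative to the 75th percentile of their own array, so a difference of 1 is 2-fold, and levels of different probes are not compared. The 8 arrays had between 32711 and 41354 spots well above background, fewest on the 2 control arrays, and 0 saturated spots. All lay on 1 slide, with each group in its own slide position, so position and group cannot be told apart. Signal extraction was done in 2 runs, with 3-NPA alone in the second. Across genes, replicate arrays correlated at 0.99 to 0.997 and arrays of different groups at 0.973 to 0.989. The label's cell type was checked with marker genes. Of 9 dopaminergic markers, Th, Slc18a2 and Nr4a2 were well above background on all 8 arrays and Slc6a3 and Foxa2 on none. Of 9 neuronal markers on the array, Map2 and Tubb3 were so on all 8 and Gap43, Nefl, Nefm, Snap25 and Stmn2 on none, and of 7 progenitor markers Nes and Vim were on all 8 and Sox2, Pax6 and Fabp7 on none. Markers of other cell types were partly present: 2 of 7 for astrocytes, 1 of 7 for oligodendrocytes, 3 of 7 for microglia, 3 of 7 for fibroblasts and 2 of 6 for endothelium were above background on all 8 arrays.

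Summed over a marker list, in multiples of the array's 75th percentile, the signal moved with 3-NPA for several of these lists. The progenitor and fibroblast sums were highest with Mn. The neuronal sum ran from 1.69 to 1.78 in control, 2.06 to 2.76 with Mn, 2.27 to 2.43 with MPP+ and 4.31 to 4.82 with 3-NPA. That list split, since against control Tubb3 rose with 3-NPA (log2 difference 1.77, limma adjusted p = 0.000733) and Map2 fell (-0.80, 0.0349). The dopaminergic sum was 0.769 to 0.805 in control, 0.741 to 0.769 with Mn, 0.683 to 0.751 with MPP+ and 0.901 to 0.929 with 3-NPA, and Slc6a3 and Foxa2 stayed below background. Its 7 tested genes went both ways, with log2 differences from -3.61 to 0.47 with Mn, -2.52 to 0.98 with MPP+ and -0.08 to 2.01 with 3-NPA. Aldh1a1, lowest with Mn and MPP+, was well above background on only 5 arrays, and Ddc, highest with 3-NPA, on 6. The endothelial sum was 0.717 to 0.769 in control, 0.653 to 0.684 with Mn, 0.613 to 0.621 with MPP+ and 1.02 to 1.05 with 3-NPA, where Tek stayed below background. The microglial sum was 0.487 to 0.608 in control, 0.512 to 0.597 with Mn, 0.363 to 0.417 with MPP+ and 0.664 to 0.703 with 3-NPA, where P2ry12 and Ptprc stayed below background. The progenitor sum was 12.5 to 14.3 in control, 21.9 to 22.8 with Mn, 16.2 to 16.8 with MPP+ and 16.3 to 16.9 with 3-NPA. The fibroblast sum was 17.8 to 21.1 in control, 29.6 to 31.0 with Mn, 20.9 to 22.3 with MPP+ and 20.8 to 22.3 with 3-NPA. Of the 5 fibroblast genes tested, 3 were higher with Mn than in control and 2 lower. With MPP+ 2 were higher and 3 lower (log2 differences -1.90 to 0.42), and with 3-NPA 4 and 1 (-1.98 to 1.13). Most of this sum came from Fn1, whose brighter probe had means of 4.10 in control, 4.77 with Mn, 4.30 with MPP+ and 4.12 with 3-NPA. The 3-NPA range of the oligodendrocyte sum overlapped that of another group, and the astrocyte sum lay between control and the other toxins with 3-NPA. The part of these shifts in the results that follow was not tested.

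More of the replication genes passed the test with 3-NPA than with Mn or MPP+. With Mn no member passed the test on its brightest probe. With MPP+ 1 of 44 rose and 2 fell, and with 3-NPA 3 rose and 13 fell, at an adjusted p (limma, Benjamini-Hochberg over 16908 genes) below 0.05. These counts were set against all genes tested. The share of all genes called was 7.66% for Mn (4.5% up, 3.16% down). It was 13.9% for MPP+ (7.47% up, 6.47% down) and 38.3% for 3-NPA (22.3% up, 16% down). The 16 calls of 44 for 3-NPA were thus no larger a share than that of all genes, while 13 of 44 lower stand beside 16% of all genes and 3 of 44 higher beside 22.3%, a difference that was not tested. At an unadjusted p below 0.05, limma gave 3 members for Mn (2 higher and 1 lower) where 25.8% of all genes were, 13 for MPP+ (2 and 11, 31.4%) and 24 for 3-NPA (3 and 21, 48.4%).

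The median log2 difference of the 44 members was 0.0003 with Mn, -0.16 with MPP+ and -0.26 with 3-NPA, and that of all genes -0.02, 0.02 and 0.05. Measured against all genes, the members were therefore 0.31 lower with 3-NPA and 0.18 lower with MPP+, in median. Those gaps depended on the processing, and most on the filter on dim probes. Without it the median of all genes, now with probes at background, was -0.27 for 3-NPA and -0.22 for MPP+, and the members' median differed from it by 0.01 and 0.06. The members' own medians stayed at -0.26 and -0.16, and the Mn gap went from 0.02 to 0.21. With the filter on all 8 arrays the gaps were -0.22 for 3-NPA and -0.17 for MPP+. With the median of each array as its scale in place of the 75th percentile, the members' medians were 0.07, -0.05 and -0.40. Those of all genes were 0.06, 0.13 and -0.09, so the gaps were the same as with the 75th percentile. The MPP+ gap was -0.08 with the normexp background correction, -0.11 without Control replicate 1 and -0.21 without MPP+ replicate 2. The 3-NPA gap was -0.24 with normexp and -0.29 without Control replicate 1. In bulk RNA, fewer cells in S phase and less RNA in each such cell cannot be told apart.

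Array by array, the shift was shared by replicates. The members' median distance from the control mean was 0.01 for each Mn array, -0.19 and -0.14 for MPP+ and -0.23 for each 3-NPA array. Of 44 members, 20 and 21 lay below the control mean in the Mn pair, 32 and 28 in the MPP+ pair, and 33 and 32 in the 3-NPA pair. Replicates of a member differed by a median of 0.10 in control, 0.17 with Mn, 0.08 with MPP+ and 0.07 with 3-NPA, and the widest gap was 0.79, for Mcm6 with Mn. The heat map of the members by array shows these distances gene by gene.

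**Figure D2:**
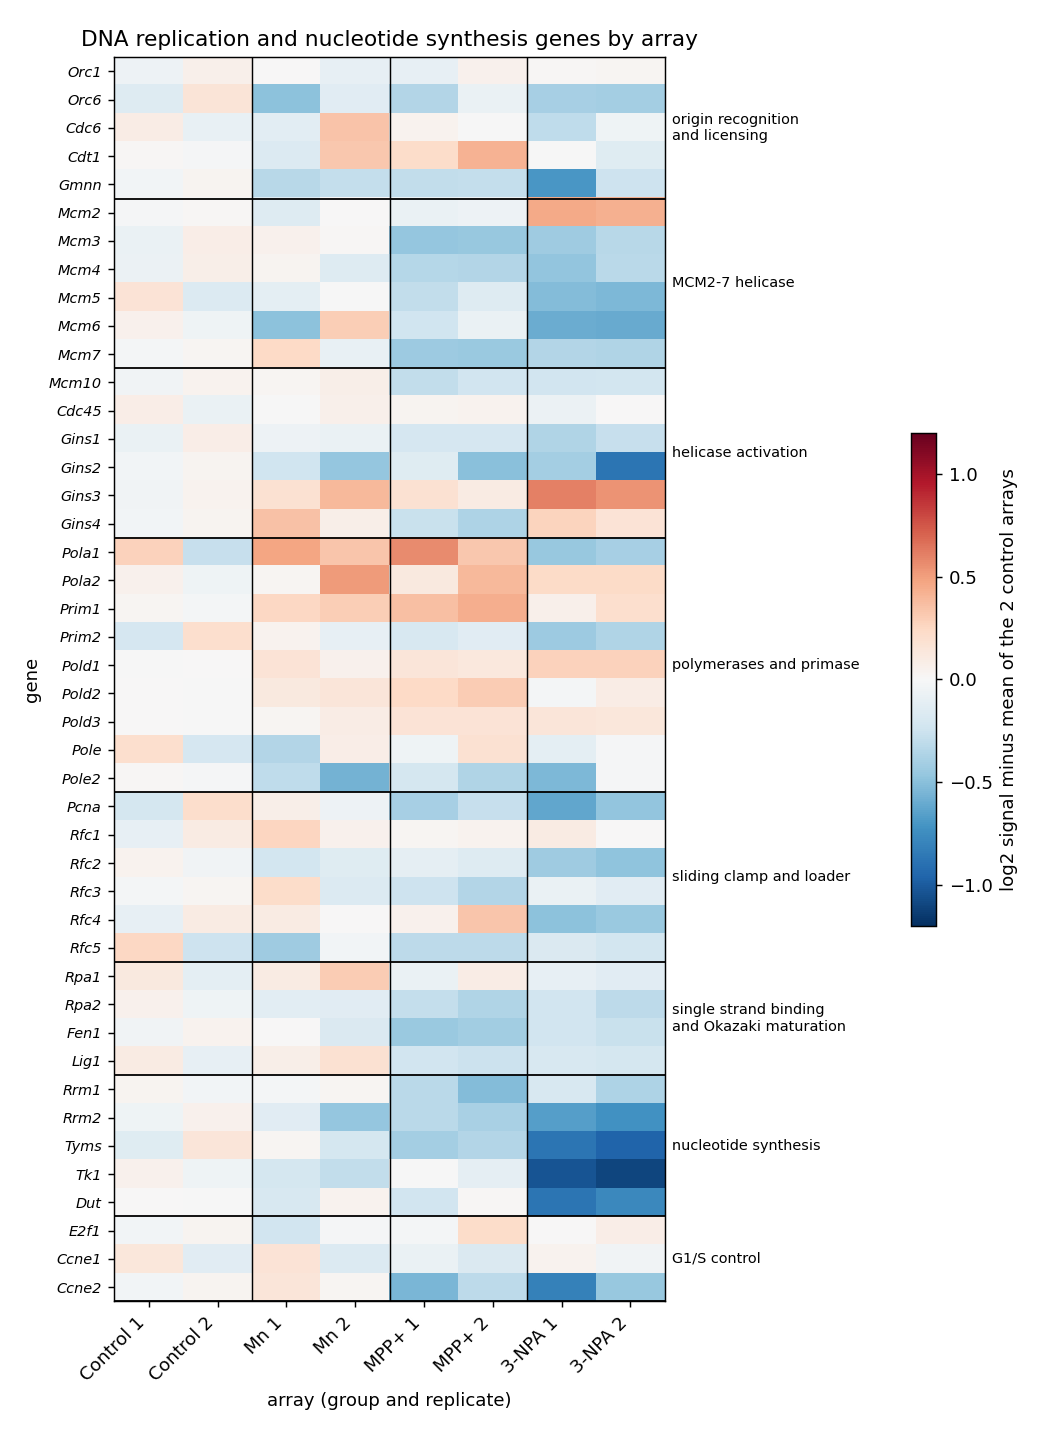
The 44 members on each of the 8 arrays. Rows are genes grouped by role, columns are arrays, and colour is the log2 signal minus the mean of the 2 control arrays (blue lower, red higher). Tk1 and Tyms are the darkest blue rows on both 3-NPA arrays, and Mcm2 and Gins3 stand out in red.

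Ordered by their group means, 3-NPA was the lowest group for 21 of 44 members, MPP+ for 11, control for 7 and Mn for 5, where the shares over all genes were 29.2%, 21.7%, 27.1% and 21.9%. Both 3-NPA arrays lay below the other 6 for 12 members (17.7% of all genes did), namely Dut, Gins1, Mcm5, Mcm6, Pcna, Pola1, Prim2, Rfc2, Rfc4, Rrm2, Tk1 and Tyms. For Pola1, and for Gins3 below, the control arrays gave only background, so their place relative to control in these counts is not a measured order. They lay above the other 6 for Gins3, Mcm2 and Pold1, which is 3 members against 23.2% of all genes. Both MPP+ arrays lay below the rest for 7 members (9.83% of all genes), namely Fen1, Gins4, Lig1, Mcm10, Mcm3, Mcm7 and Rfc3, and above for Pold2, Pold3 and Prim1 (11.6%). The control arrays lay below the other 6 for Gins3, Pold1, Pold3 and Prim1 (12.4% of all genes) and above them for Gins2, Gmnn, Pole2, Rfc2, Rpa2 and Rrm2 (9.33%). The Mn arrays lay outside the rest for 0 members (6.45% of genes below and 5.26% above).

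The genes of nucleotide synthesis had the lowest 3-NPA median of the 8 roles. With 3-NPA, where 16% of all genes were called lower, 4 of 5 fell and the other, Rrm1, had a log2 difference of -0.28 ± 0.11 (SE) that did not pass, and their median was -0.82. With MPP+ and Mn 0 of 5 passed, with medians of -0.36 and -0.09 (3 and 1, all lower, at an unadjusted limma p below 0.05). Over all genes, 13.9% were called with MPP+ and 7.66% with Mn, and 31.4% and 25.8% had an unadjusted limma p below 0.05. Tk1, the cytosolic thymidine kinase that salvages thymidine, read 3.08 and 2.97 on the control arrays, 2.82 and 2.73 with Mn, 3.02 and 2.92 with MPP+ and 1.99 and 1.92 with 3-NPA. Both 3-NPA arrays were far below all the others, which lay close together. The 3-NPA difference of Tk1 was -1.07 ± 0.09 (limma adjusted p = 0.000727, n = 2 arrays per group), the largest fall among the members on their brightest probes.

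Tyms, thymidylate synthase, which makes dTMP from dUMP (probe at chromosome 9, 112605733 to 112605792 on rn4), read -0.45 and -0.15 in control, -0.28 and -0.51 with Mn, -0.71 and -0.66 with MPP+ and -1.18 and -1.26 with 3-NPA. The order ran from control and Mn, which overlapped, through MPP+ to 3-NPA, and each step down was free of overlap. Its 3-NPA difference was -0.92 ± 0.14 (limma adjusted p = 0.0040) and its MPP+ difference -0.38 ± 0.14 (0.12). Dut, the dUTPase that keeps uracil out of DNA (chromosome 3, 112552056 to 112553800, a span wider than a probe), read 1.15 and 1.15 in control, 0.95 and 1.19 with Mn, 0.92 and 1.16 with MPP+ and 0.27 and 0.38 with 3-NPA. The 3-NPA arrays alone left the common range. Its 3-NPA difference was -0.82 ± 0.13 (limma adjusted p = 0.00476).

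Rrm2, the S-phase subunit of ribonucleotide reductase (chromosome 6, 42359210 to 42359269), read 7.10 and 7.20 in control, 7.01 and 6.69 with Mn, 6.83 and 6.75 with MPP+ and 6.49 and 6.42 with 3-NPA. Control was highest and 3-NPA lowest, with Mn and MPP+ between them. The 3-NPA difference was -0.69 ± 0.13 (limma adjusted p = 0.00861). A dimmer probe of Rrm2 showed larger falls, with 1.24 and 1.25 in control, 0.75 and 0.65 with Mn, 0.74 and 0.74 with MPP+ and -0.09 and -0.12 with 3-NPA. On that probe every toxin lowered Rrm2 without overlap, by -1.35 ± 0.08 with 3-NPA, -0.51 ± 0.08 with MPP+ and -0.54 ± 0.08 with Mn (limma adjusted p over all probes 0.0003, 0.0173 and 0.0196). On the brighter probe neither Mn (-0.30 ± 0.13, 0.21) nor MPP+ (-0.36 ± 0.13, 0.12) passed, so the 2 probes of Rrm2 gave different calls for those toxins. Rrm1, the large subunit of the same enzyme, read -2.54 and -2.61 in control, -2.60 and -2.56 with Mn, -2.90 and -3.10 with MPP+ and -2.77 and -2.95 with 3-NPA. Both inhibitor groups lay below control and Mn, and neither difference passed (MPP+ -0.42 ± 0.11, limma adjusted p = 0.0586). The calls of Tk1, Tyms and Dut for 3-NPA held when any 1 array was left out, and that of Rrm2 was lost without 3-NPA replicate 2 (-0.66, 0.0544).

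**Figure D3:**
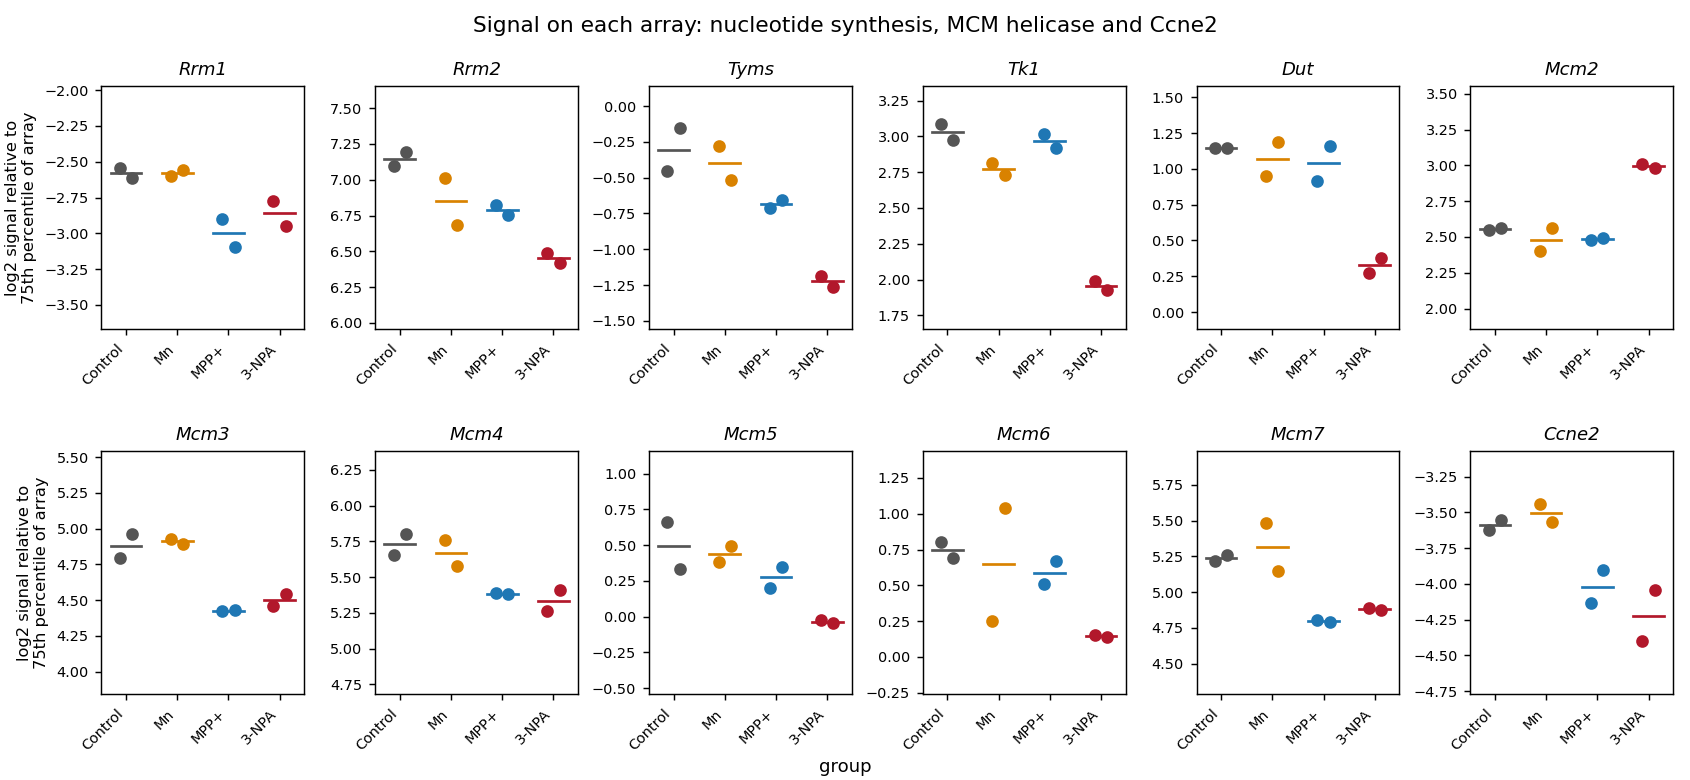
Signal of 12 members on each array, with points for arrays and bars for the mean of the 2 arrays of a group. The vertical axis is the log2 signal relative to the array's 75th percentile, with the same height of 1.7 in every panel, and groups run from control to 3-NPA. Tk1, Tyms and Dut drop to 3-NPA only or most there, Mcm3 and Mcm7 are low with both MPP+ and 3-NPA, and Mcm2 is high with 3-NPA.

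Among the 5 genes of origin recognition and licensing 0 passed with any toxin in limma, and 1, Gmnn with 3-NPA, had an unadjusted p below 0.05. Of all genes, 7.66% were called with Mn, 13.9% with MPP+ and 38.3% with 3-NPA. The medians of the 5 were -0.05 with Mn, -0.02 with MPP+ and -0.18 with 3-NPA. Gmnn, geminin, which holds Cdt1 in check, was lowest with 3-NPA, with 2.43 and 2.49 in control, 2.13 and 2.17 with Mn, 2.17 and 2.17 with MPP+ and 1.76 and 2.22 with 3-NPA. All 6 toxin arrays lay below control, and the largest difference, with 3-NPA, was -0.47 ± 0.15 (limma adjusted p = 0.055). Orc6, a subunit of the origin recognition complex, had -0.41 ± 0.17 with 3-NPA, and Cdt1, the licensing factor, 0.32 ± 0.17 with MPP+. Orc1, the large subunit (0.01 ± 0.10 with 3-NPA), and Cdc6, the loader's ATPase (-0.18 ± 0.18), differed by less than or about as much as their standard errors.

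The MCM2-7 helicase, the ring of subunits that unwinds DNA, did not move as a unit. With 3-NPA Mcm3, Mcm4 and Mcm5 fell and Mcm2 rose, and with MPP+ Mcm3 fell. Mcm3 (chromosome 9, 19536947 to 19537006) read 4.80 and 4.97 in control, 4.93 and 4.89 with Mn, 4.42 and 4.43 with MPP+ and 4.46 and 4.55 with 3-NPA. Control and Mn formed a high pair and MPP+ and 3-NPA a low pair. The differences were -0.46 ± 0.10 with MPP+ (limma adjusted p = 0.0303), -0.38 ± 0.10 with 3-NPA (0.0243) and 0.03 ± 0.10 with Mn (0.867). The dimmer probe of Mcm3 gave similar sizes that did not pass (-0.42 ± 0.18 and -0.38 ± 0.18).

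Mcm4 (chromosome 11, 87183282 to 87183341) read 5.66 and 5.80 in control, 5.76 and 5.58 with Mn, 5.39 and 5.38 with MPP+ and 5.26 and 5.41 with 3-NPA. MPP+ and 3-NPA were again below control and Mn, and 3-NPA passed (-0.40 ± 0.11, limma adjusted p = 0.0353) while MPP+ did not (-0.35 ± 0.11, 0.0949). Mcm5 (chromosome 19, 13998935 to 13998994) read 0.66 and 0.33 in control, 0.38 and 0.49 with Mn, 0.20 and 0.35 with MPP+ and -0.02 and -0.05 with 3-NPA. The 3-NPA arrays were below all others (-0.53 ± 0.13, limma adjusted p = 0.0245), and the other 3 groups overlapped. The dimmer probe of Mcm4 had -1.10 ± 0.47 with 3-NPA (limma adjusted p over all probes 0.114). Mcm6 had the largest of the helicase's differences with 3-NPA on the brightest probes and did not pass (-0.60 ± 0.25, limma adjusted p = 0.102), and its Mn arrays, at 0.25 and 1.04, lay widest apart of all members. Mcm7 (chromosome 12, 17607251 to 17607310) read 5.22 and 5.26 in control, 5.48 and 5.15 with Mn, 4.81 and 4.79 with MPP+ and 4.89 and 4.88 with 3-NPA. It fell short of the threshold against control for MPP+ (-0.44 ± 0.12, 0.0684) and 3-NPA (-0.35 ± 0.12, 0.0676).

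Mcm2 went the other way. It read 2.55 and 2.56 in control, 2.40 and 2.56 with Mn, 2.48 and 2.49 with MPP+ and 3.01 and 2.98 with 3-NPA (chromosome 4, 122978031 to 122978090). Only the 3-NPA arrays stood above the rest, with a difference of 0.44 ± 0.09 (limma adjusted p = 0.0123). A dimmer probe of Mcm2 gave 0.26 ± 0.29, which did not pass. The rise did not pass with scaling by the array median (0.30, 0.0735), on the mean of both probes (0.35, 0.171), or without 3-NPA replicate 1 (0.43, 0.074) or 2 (0.46, 0.0631).

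The falls of the MCM genes also leaned on single arrays. Without Control replicate 2 the calls of Mcm3 (-0.30, limma adjusted p = 0.0734) and Mcm4 (-0.32, 0.116) for 3-NPA were lost, without Control replicate 1 that of Mcm5 (-0.37, 0.067), and without either 3-NPA array all 3 (0.0764 to 0.175). Leaving out an MPP+ array, which enters only the estimate of the spread, ended the 3-NPA calls of Mcm3 and Mcm4 (0.0569 and 0.0723). The MPP+ fall of Mcm3 was lost without Control replicate 2 (-0.37, 0.0727), either MPP+ array (0.154 and 0.163) or either 3-NPA array (0.069), and with median scaling (-0.34, 0.135).

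Of the factors that activate the helicase, Gins1 and Gins2 fell with 3-NPA and Gins3 rose, although the GINS proteins work as 1 complex. Gins2 read -0.76 and -0.69 in control, -0.96 and -1.19 with Mn, -0.86 and -1.23 with MPP+ and -1.13 and -1.60 with 3-NPA. All toxin arrays lay below control, with wide gaps between replicates, and 3-NPA passed narrowly (-0.64 ± 0.20, limma adjusted p = 0.047). Gins1 read 2.99 and 3.15 in control, 3.01 and 2.99 with Mn, 2.87 and 2.87 with MPP+ and 2.71 and 2.79 with 3-NPA, a fall of -0.32 ± 0.09 (limma adjusted p = 0.0394). Its MPP+ arrays stood between control and 3-NPA. Gins3 read -4.56 and -4.48 in control, where it was not well above background on either array, -4.34 and -4.13 with Mn, -4.34 and -4.43 with MPP+ and -3.92 and -3.99 with 3-NPA.

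Gins3 was at least 1.46-fold higher with 3-NPA than in control, taking control at the higher of its own signal and the lowest signal well above background on each array (limma adjusted p = 0.00856). It passed the filter only through the toxin groups, and its call was lost with the normexp background correction (limma adjusted p = 0.182) and without 3-NPA replicate 1 (0.0575). Gins4, the remaining GINS subunit, read 1.24 and 1.30 in control, 1.62 and 1.34 with Mn, 1.00 and 0.90 with MPP+ and 1.53 and 1.43 with 3-NPA. It lay below control with MPP+ (-0.32 ± 0.12, limma adjusted p = 0.133) and above it with 3-NPA (0.21 ± 0.12, 0.216), and neither passed. Cdc45, the helicase cofactor, kept within 0.07 between group means in every comparison, with 4.70 and 4.54 in control and 4.55 and 4.63 with 3-NPA. Mcm10, which joins helicase and polymerase, was lower with MPP+ (-0.27 ± 0.09) and 3-NPA (-0.22 ± 0.09) without passing. The call of Gins1 was lost without Control replicate 2 (-0.24, limma adjusted p = 0.117), either MPP+ array (0.0836) or either 3-NPA array (0.185 and 0.106). That of Gins2 was lost without Control replicate 1 or 2 (0.106 and 0.137), either Mn array (0.0608), either MPP+ array (0.0554) or 3-NPA replicate 2 (-0.41, 0.2).

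The polymerase and primase genes gave 0 falls among 9 with any toxin against control in limma, and 1, Prim2 with 3-NPA, at an unadjusted p below 0.05. Over all genes 3.16% were called lower with Mn, 6.47% with MPP+ and 16% with 3-NPA, so 0 of 9 is not far from those shares. Prim1, the catalytic primase subunit, rose with MPP+ and Pold1, the catalytic subunit of polymerase delta, with 3-NPA, and the medians of the 9 were 0.11 with Mn, 0.17 with MPP+ and 0.03 with 3-NPA. Whether this role differed from others was not tested. Prim1 (chromosome 7, 1321717 to 1321776) read 2.23 and 2.19 in control, 2.46 and 2.51 with Mn, 2.57 and 2.65 with MPP+ and 2.27 and 2.41 with 3-NPA. All 6 toxin arrays were above control, and MPP+ was highest (0.40 ± 0.09, limma adjusted p = 0.040). Pold1 (chromosome 1, 95010792 to 95011164) read 3.84 and 3.85 in control, 4.01 and 3.90 with Mn, 3.99 and 3.97 with MPP+ and 4.12 and 4.12 with 3-NPA, a difference of 0.28 ± 0.08 (limma adjusted p = 0.0445). Its toxin arrays were likewise all above control.

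The small subunits Pold2 and Pold3 lay highest with MPP+, where Pold2 differed by 0.27 ± 0.09 and Pold3 by 0.17 ± 0.08, and neither passed. Pole2, a subunit of polymerase epsilon, had -0.44 ± 0.19 with Mn, the lowest value of any member for that toxin (limma adjusted p = 0.213), and its large subunit Pole stayed within 0.13 of control in each toxin. Pola1, the catalytic subunit of polymerase alpha, was not well above background on either control array, so no fold against control is given. It read -4.43 and -4.57 with Mn, -4.34 and -4.57 with MPP+ and -5.35 and -5.30 with 3-NPA, so that the 3-NPA arrays were the lowest. Its partner Pola2 differed from control by 0.23 to 0.27 and the large primase subunit Prim2 by -0.40 ± 0.15 with 3-NPA, and neither passed. Pold1 was no longer called with median scaling (0.13, limma adjusted p = 0.378) or without either control, MPP+ or 3-NPA array (0.0907 to 0.168), and Prim1 was not without any 1 array (0.0519 to 0.224).

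Pcna, the clamp that holds polymerases on DNA, and the loader genes Rfc2 and Rfc4 fell with 3-NPA, which makes 3 of the 6 genes of this role beside 16% of all genes, with a median of -0.33. With Mn and MPP+ 0 passed in limma, also at an unadjusted p below 0.05 (medians 0.01 and -0.21). Over all genes, 7.66% were called with Mn and 13.9% with MPP+, and 25.8% and 31.4% had an unadjusted limma p below 0.05. With 6 genes, these zeros do not show an absence of change. Pcna (chromosome 3, 120008997 to 120009056) read 3.17 and 3.59 in control, 3.45 and 3.32 with Mn, 2.98 and 3.10 with MPP+ and 2.76 and 2.91 with 3-NPA. Its order was that of Tyms, with control and Mn together, then MPP+, then 3-NPA, and the 3-NPA difference was -0.55 ± 0.16 (limma adjusted p = 0.0396). Rfc2 (chromosome 12, 23185837 to 23185896) read 1.54 and 1.45 in control, 1.27 and 1.35 with Mn, 1.39 and 1.34 with MPP+ and 1.06 and 1.00 with 3-NPA. All toxin arrays were below control and 3-NPA was lowest (-0.46 ± 0.09, limma adjusted p = 0.00951).

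Rfc4 (chromosome 11, 79949868 to 79949927) read 1.58 and 1.77 in control, 1.77 and 1.68 with Mn, 1.73 and 2.00 with MPP+ and 1.18 and 1.23 with 3-NPA. Here MPP+ did not share the fall of 3-NPA, which was -0.47 ± 0.13 (limma adjusted p = 0.0317), and stood at 0.19 ± 0.13 from control. The large loader subunit Rfc1 (0.05 ± 0.12 with 3-NPA), Rfc3 (-0.11 ± 0.14) and Rfc5 (-0.20 ± 0.20) did not pass. Rfc2 lost its call without 3-NPA replicate 2 (-0.43, limma adjusted p = 0.0652), and Rfc4 without Control replicate 2 (-0.37, 0.111) or either 3-NPA array (0.134 and 0.106). Pcna lost it without Control replicate 2 (-0.33, 0.105) or any 1 of the toxin arrays (0.055 to 0.169).

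Fen1, the flap nuclease of Okazaki fragment maturation, fell with MPP+. It read 4.94 and 5.03 in control, 4.99 and 4.81 with Mn, 4.53 and 4.57 with MPP+ and 4.75 and 4.72 with 3-NPA (chromosome 1, 212688202 to 212688261). MPP+ was lowest and 3-NPA next, with differences of -0.43 ± 0.10 (limma adjusted p = 0.0379) and -0.25 ± 0.10 (0.0943). Lig1, the ligase that seals the fragments, was likewise lowest with MPP+ and next with 3-NPA, while control and Mn overlapped. It read 4.74 and 4.54 in control, 4.71 and 4.82 with Mn, 4.42 and 4.38 with MPP+ and 4.45 and 4.43 with 3-NPA. Lig1 did not pass (-0.24 ± 0.10 with MPP+). Rpa2, a subunit of the single-strand binding protein, was lower with MPP+ (-0.32 ± 0.09, 0.0643) and 3-NPA (-0.27 ± 0.09, 0.0542), without passing. Its large subunit Rpa1 lay within 0.12 of control with MPP+ and 3-NPA. The Fen1 call was lost with median scaling (-0.32, limma adjusted p = 0.15) and without either control, MPP+ or 3-NPA array (0.0669 to 0.184).

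At the G1/S switch, Ccne2, cyclin E2, fell with 3-NPA, whereas Ccne1, cyclin E1, and E2f1, the transcription factor, did not pass with any toxin. Ccne2 (chromosome 5, 25039349 to 25040889) read -3.62 and -3.55 in control, -3.44 and -3.56 with Mn, -4.13 and -3.91 with MPP+ and -4.40 and -4.04 with 3-NPA. MPP+ and 3-NPA overlapped each other and lay below control and Mn. The differences were -0.63 ± 0.15 with 3-NPA (limma adjusted p = 0.0197) and -0.43 ± 0.15 with MPP+ (0.11). Ccne1 read 3.88 and 3.60 in control and 3.78 and 3.69 with 3-NPA, and E2f1 2.00 and 2.07 in control and 2.04 and 2.11 with 3-NPA, so both stayed within the control range or next to it. The Ccne2 call was lost without Control replicate 1 (-0.67, limma adjusted p = 0.054) or 2 (-0.60, 0.0686) and without 3-NPA replicate 1 (-0.46, 0.0934).

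**Figure D4:**
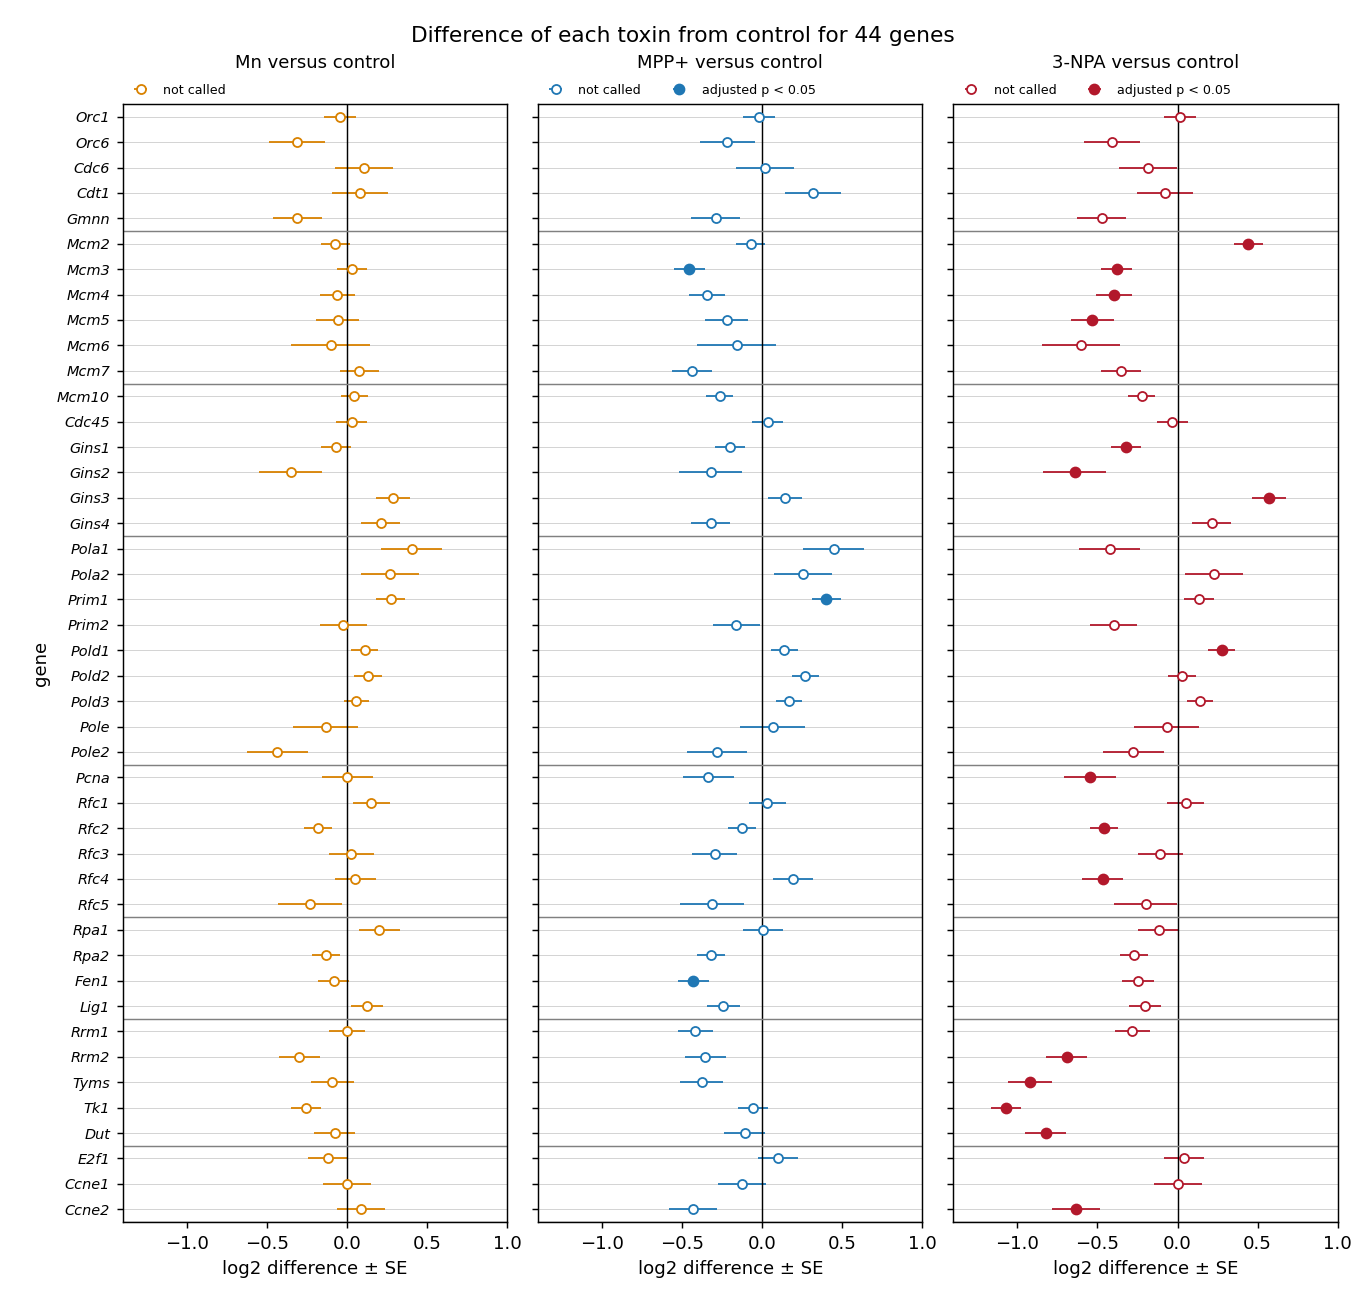
Difference of each toxin from control for the 44 members, on the log2 scale with the standard error from limma. Rows are genes in the order of their roles, panels are toxins, and filled circles mark an adjusted p below 0.05. Filled circles number 0 for Mn, 3 for MPP+ and 16 for 3-NPA.

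For the 42 members above background in both groups the 95% interval of the Mn difference lay within -0.90 and 0.71, short of a 2-fold change either way. The arrays of Mn and control did not overlap for 14 members, 7 higher and 7 lower, where 50.5% of all genes did not overlap (25.4% up, 25.1% down). With MPP+ the arrays did not overlap for 8 members that were higher and 22 that were lower (34% and 29.4% of all genes, 63.5% together), and those 42 intervals again lay within a 2-fold change. With 3-NPA they did not overlap for 7 higher and 26 lower (39.9% and 31.9% of all genes, 71.9% together). There the intervals of Tk1, Tyms, Dut, Rrm2, Gins2 and Mcm6 reached beyond a 2-fold fall.

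**Figure D5:**
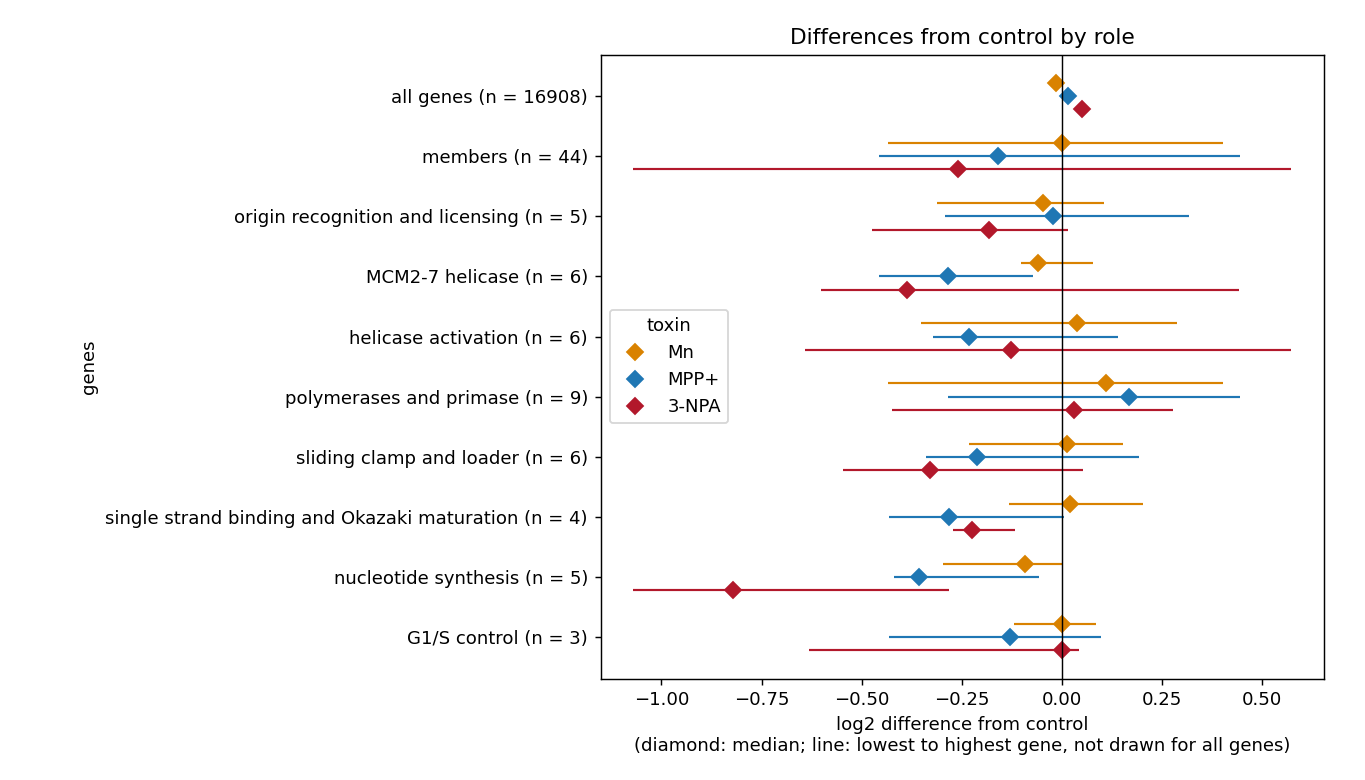
Differences from control by role, on the log2 scale. Diamonds are medians over the genes of a role and lines run from the lowest to the highest gene, for Mn, MPP+ and 3-NPA, with the 44 members together and all 16908 genes tested above them. Nucleotide synthesis has the lowest 3-NPA median (-0.82) and its line does not reach 0, while the polymerase and primase medians lie at 0.03 to 0.17.

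The toxins were also compared with each other, where the control arrays enter only the estimate of the spread. Against Mn, 3-NPA had 1 member higher (Mcm2, 0.52 ± 0.09) and 10 lower, where 16.9% and 11.7% of all genes were called (28.6% together). The 10 were Mcm3, Mcm5, Mcm7, Pola1, Pcna, Rfc4, Tyms, Tk1, Dut and Ccne2. On the brightest probes the largest falls were those of Tyms and Pola1 (each -0.83, SE 0.14 and 0.19), Tk1 (-0.82 ± 0.09) and Dut (-0.74 ± 0.13), with limma adjusted p of 0.00777, 0.0244, 0.00235 and 0.00889. The dimmer probe of Rrm2, which is not in these counts, had -0.81 ± 0.08 against Mn and -0.85 ± 0.08 against MPP+ (limma adjusted p over all probes 0.0018 and 0.0015), and the dimmest of the 3 Rfc1 probes 0.64 ± 0.15 against MPP+ (0.0219), where the brightest had 0.02 ± 0.12. Against MPP+, 3-NPA had 3 members higher and 6 lower, where 18.1% and 12.9% of all genes were called (31% together). Mcm2 (0.51 ± 0.09, limma adjusted p = 0.00932), Gins3 (0.43 ± 0.11, 0.0264) and Gins4 (0.53 ± 0.12, 0.021) were higher with 3-NPA. With scaling by the array median the split was 0 higher and 12 lower, which ended those 3 calls. Tk1 (-1.01 ± 0.09, 0.00113), Pola1 (-0.87 ± 0.19, 0.0197), Dut (-0.71 ± 0.13, 0.00976), Rfc4 (-0.66 ± 0.13, 0.0126), Tyms (-0.54 ± 0.14, 0.0295) and Rfc2 (-0.33 ± 0.09, 0.0343) were lower. With the normexp correction the difference of Pola1 from MPP+ was -0.24 (0.0834).

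MPP+ differed from Mn in 1 member, Mcm3 (-0.49 ± 0.10, limma adjusted p = 0.0336), where 9.1% of all genes were called (4.22% up, 4.88% down), and 9 members, all lower with MPP+, had an unadjusted limma p below 0.05, a smaller share than the 28.3% of all genes. Gins4 came next to the threshold (-0.53 ± 0.12, 0.0501). The comparisons with Mn and with MPP+ share the 3-NPA arrays. Mcm3, Mcm7, Mcm10, Fen1, Lig1, Rpa2 and Rrm1 gave 3-NPA differences from MPP+ of 0.04 to 0.19, with 95% intervals that ran from -0.22 to 0.42 over the 7 genes, so that no difference between these toxins was detectable for them with 2 arrays each. The doses differed and that of 3-NPA is not in the labels, so these are comparisons of the treatments as given. For 3-NPA against Mn and against MPP+, the calls of Tk1 held when any 1 array was left out, and each other call was lost without at least 1 array of the groups compared (limma adjusted p 0.0544 to 0.204 and 0.056 to 0.172).

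Other genes of these pathways, in lists chosen with earlier results known, were counted the same way. Over all genes 22.3% were called higher and 16% lower with 3-NPA, and 7.47% and 6.47% with MPP+. The counts of the lists were not tested against those shares. Of 23 further fork and maturation factors, 1 was called higher and 10 fell with 3-NPA, and 2 fell with MPP+. Rpa3, the small subunit of the single-strand binding protein, fell by -1.24 ± 0.14 with 3-NPA and -0.66 ± 0.14 with MPP+ (limma adjusted p = 0.0014 and 0.0292). Chtf18 (-1.18 ± 0.16) and Dscc1 (-0.90 ± 0.11), parts of the alternative clamp loader, fell with 3-NPA, and the histone chaperone Asf1b fell with MPP+ (-0.40 ± 0.09). The higher call was Dna2, a nuclease and helicase, which was not well above background in control and did not exceed the control arrays' floor with 3-NPA, so no rise can be read from it. Of 12 further origin and helicase factors, 3 were called higher and 0 lower with 3-NPA, which were also the counts at an unadjusted limma p below 0.05. They were Mcm8, an MCM relative of recombination repair (0.58 ± 0.12), Orc5 of the origin complex (at least 1.25-fold, dim in control) and the kinase gene Cdc7. Cdc7 was not well above background in control and its 3-NPA signal did not exceed the control arrays' floor, so no rise can be read from it. Orc3 rose with MPP+ (0.54 ± 0.11).

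Of 15 further enzymes of deoxynucleotide supply, 3 rose and 9 were called lower with 3-NPA, beside 22.3% and 16% of all genes. The deoxycytidine kinase gene Dck was called lower with 3-NPA and MPP+, though dim in control, so no fall can be read from it. Cmpk2, a mitochondrial nucleotide kinase that interferon is known to induce, rose with every toxin, by 1.63 ± 0.12 with Mn, 1.53 ± 0.12 with MPP+ and 2.53 ± 0.12 with 3-NPA. Shmt1, serine hydroxymethyltransferase, rose with MPP+ (0.59 ± 0.09) and 3-NPA (0.93 ± 0.09). Tk2, the mitochondrial thymidine kinase, rose with 3-NPA on its brighter probe (0.56 ± 0.14) and had -0.67 ± 0.41 on the other, which did not pass. Deoxynucleotide enzymes therefore changed in both directions with 3-NPA.

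Among 17 genes of purine and pyrimidine synthesis from small precursors, 2 rose and 5 fell with 3-NPA, with a median of 0.02. Paics (-0.77 ± 0.13) and Gart (-0.69 ± 0.16) of the purine pathway and Umps (-0.64 ± 0.12) of the pyrimidine pathway fell, and Prps2 (0.60 ± 0.18) and Ctps2 (0.43 ± 0.13) rose. Adsl of the purine pathway rose with MPP+ (0.38 ± 0.09). Of 20 regulators of G1/S, E2F and RB, 6 were called higher and 6 fell with 3-NPA. Cdkn1a, the p21 inhibitor of cyclin-dependent kinases, was higher on its brighter probe with Mn (2.01 ± 0.13), MPP+ (1.39 ± 0.13) and 3-NPA (2.89 ± 0.13), while its dimmer probe did not pass with any (0.14, -0.11 and 0.28). Cyclin D3 (Ccnd3, -1.01 ± 0.18), cyclin A2 (Ccna2, -0.94 ± 0.20) and Cdk6 (-0.80 ± 0.15) fell with 3-NPA, and Cdk6 (-0.77 ± 0.15) and the ubiquitin ligase gene Skp2 (-0.38 ± 0.09) with MPP+. Tfdp2, a partner of E2F, rose with 3-NPA (0.47 ± 0.12), and Ccnd2 was called higher from a control below background, with no bound on the rise. For these 2 lists too, the shares of all genes called with 3-NPA were 22.3% higher and 16% lower, and those for Mn and MPP+ are given above.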

How the data were processed

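RNA of N27 cells was labelled with Cy3 and hybridised to 8 one-colour arrays, 2 per group, grouped by the labels' titles. The deposited scanner files hold spot intensity values extracted with Agilent Feature Extraction 11.5.1.1, background-subtracted and detrended within the array and not normalized between arrays, with probe positions on rn4, per the file headers. A second deposited table gives log2 values that follow the processed signal minus 1 constant per array (96.7 to 97.9% within 0.05), and its column medians ran from -4.38 to -3.99, and how its other values were made is not given in the sources used here.

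Of 62976 spots, 58717 were no control spots. Spots marked as outliers were also left out, which removed 39 of 30367 probes. Spots of a probe were averaged as log2 values and each array's 75th percentile was set to 0. A probe counted as above background where over 0.5 of its spots were marked so, 19460 probes above background on both arrays of a group were kept, and the brightest stood for its gene name. Group means of all 8 arrays were fitted with limma 3.58.1 (R 4.3.3; 4 residual and 2.06 prior degrees of freedom), with Benjamini-Hochberg adjustment over 16908 genes in each of 6 comparisons, and calls at 0.05. An exact 2-sided permutation test of 2 against 2 arrays cannot give a p under 0.333 and was not run. Dim groups gave bounds, not folds. The script was tested on simulated data.

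The members and all lists were chosen with earlier results of these data known. Named genes are all members and, from each further list, the 3 called genes with the largest difference in each direction for each toxin against control, some of which are not reported here. Markers were named by their list. Alternatives were normexp (offset 50), quantile or median scaling, the value table, no or a stricter filter, the mean over probes or every probe, array weights, trend and robust variances, the 4 arrays compared, the 6 arrays of the first extraction run, a replicate block and leaving out each array.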

Additional observations from a re-analysis of the deposited data

How the results depend on the processing

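Each comparison was repeated under 20 or 21 alternatives, and of 800 combinations of a call of a member and an alternative, 577 kept the call, 223 lost it and 0 reversed. A further 4, of Gins3 and Pola1 with the filter on all 8 arrays, could not be tested. For Mn against control 0 members were called on the probe or probe mean used, under every alternative. The share of all genes called, 7.66% in the main fit, ran from 0.0355% with the 4 arrays compared alone to 26.9% without a filter. Where few genes of any kind were called, a count of 0 says little about the members. The fit over every probe was read at each gene's brightest probe. In that fit the dimmer probe of Rrm2, which is not counted here, passed for Mn (-0.54, limma adjusted p over all probes 0.0196) and MPP+ (-0.51, 0.0173). For MPP+ against control the count of 3 (13.9% of all genes) became 7 with normexp, 5 with quantile normalization, 1 with median scaling, 6 with the filter on all 8 arrays, 7 with trend and robust variances, 0 with the 4 arrays compared alone, 0 with the 6 arrays of the first extraction run, and 0 to 3 when 1 array was left out. Over those settings the share of all genes ran from 2.82 to 19%. For 3-NPA against control the count of 16 (3 higher, 13 lower) became 8 with the 4 arrays alone (29.8% of all genes called, from 38.3%) and 6 to 16 when 1 array was left out, lowest without a 3-NPA array (21.3 and 21.7%). With median scaling it split into 1 higher and 21 lower, and with normexp into 1 and 16. For MPP+ against Mn the count of 1 became 4 with normexp, 5 with quantile normalization, 7 with the filter on all 8 arrays, 3 with array weights, 5 with trend and robust variances, 0 with median scaling, without a filter, with the mean over probes, with the 4 arrays alone and with the first run, and 0 to 2 when 1 array was left out (all genes 1.23 to 16.3%, from 9.1%). For 3-NPA against Mn the count of 11 became 19 with median scaling (0 higher), 5 without a filter and 2 to 12 when 1 array was left out (all genes 30.8, 13.1 and 12.6 to 31.5%, from 28.6%). For 3-NPA against MPP+ the count of 9 became 5 without a filter, 14 with array weights and 1 to 12 when 1 array was left out (all genes 14.8, 47.3 and 13.4 to 34.1%, from 31%), and median scaling gave 0 higher and 12 lower. The causes of these changes were not tested. Settings that left out arrays also had fewer arrays from which to estimate the spread.

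Deviations of same-numbered arrays correlated at -0.024 to 0.0984 for 5 pairs of groups and at 0.5 for Mn and 3-NPA, and the labels name nothing shared, so the numbers were not taken to pair the arrays. With the replicate number as a block the counts were 0 for Mn, 1 for MPP+, 13 for 3-NPA, 0 for MPP+ against Mn, 8 for 3-NPA against Mn and 8 for 3-NPA against MPP+. The shares of all genes called under that setting were, in the same order, 5.9, 12.1, 37.2, 7.21, 26.9 and 30%. With 2 arrays per group precision is limited by their number, and Gins3 and Pola1 by signal near background.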
